A study of Mus musculus with 388 samples.

Results

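Matrix metalloproteinases (Mmp genes), tissue inhibitors of metalloproteinases (Timp genes) and secreted disintegrin-like proteases with thrombospondin repeats (Adamts genes) were followed in bone marrow stromal cells. The members were all rows of the count table whose symbol is Mmp, Timp or Adamts followed by a number and an optional letter. There were 46 of them among 25000 genes: 23 Mmp, 4 Timp and 19 Adamts genes. The rule reads symbols only and uses no measured value.

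Each sample was 1 cell, sorted from bone marrow of 2-month-old C57BL/6 mice of the genotype KitMerCreMer; R26tdTomato. Tamoxifen had been given at E12.5 and E14.5, which in cells with Kit-driven Cre switches on the red reporter. Tomato+ cells and Tomato- cells share this genotype and treatment, and all were sorted as PDGFRα+ and negative for CD45 (blood), Ter119 (erythroid) and CD31 (endothelium). The Tomato- cells are therefore unmarked cells of the same kind of mouse, and a cell whose precursor escaped recombination would be among them. Of 388 cells, 386 passed a minimum of 1000 genes and 10000 counts. Titles place them in 2 orders and 8 sets, whose meaning the labels do not state: Tomato+ sets P1 (94 cells), P2 (5) and P3 (38) and Tomato- set N2 (60) in order 1, and Tomato+ sets P1 and P2 (24 each) and Tomato- sets N1 (71) and N2 (70) in order 2. No animal is named, so each group was 1 sample. Cells are not replicates, so no test was made and no difference below has a replicate check.

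Tomato+ cells held 142533338 counts in all and Tomato- cells 125804595, with a median of 679644 per cell and a range of 18031 to 3833473. The label of marrow stroma held for the members' cells: 14 of 14 markers of Lepr+ stroma reached a level of 20 CPM (counts per 1000000) and were met in 20% of cells, and they summed to 43198 to 81791 CPM over the groups and orders. Some cells went against the sorting gate. A count of 5 or more of Ptprc, which encodes CD45, was met in 12 cells, all of them Tomato- cells of order 2. The 14 myeloid markers summed to 23806 CPM over all Tomato- cells of order 2, and to 50.99, 132.8 and 74.9 CPM in Tomato+ order 1, Tomato+ order 2 and Tomato- order 1. Of these markers, S100a8 had a count in 40.9% of kept cells and Ly6g in 4.92%. At 5 or more counts, Ltf was met in 94 cells and Ly6g in 5. Myeloid reads were thus not confined to the 12 Ptprc cells. The 9 pericyte and smooth muscle markers summed to 162.1, 37.96, 1184 and 68.6 CPM and the 10 endothelial markers to 278, 296, 65.2 and 49.5 CPM in Tomato+ orders 1 and 2 and Tomato- orders 1 and 2. The part of the pericyte markers in the differences below was not tested, and values without the cells that hold Pecam1 or Ptprc are given for Mmp9, Timp4 and Adamts10. The set P2 of order 1 also stood apart, with 5 cells in which 15 of the 18 members described with values below lay under 30 CPM.

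Metalloproteinases of the Mmp family are zinc enzymes made as inactive precursors that cleave collagens, gelatins and other matrix proteins outside the cell or at its surface. Timp proteins occupy the active site of these enzymes. Adamts enzymes trim procollagens or cleave proteoglycans such as aggrecan and versican. In bone, the collagenase encoded by Mmp13 is known from hypertrophic cartilage and osteoblasts and the gelatinase encoded by Mmp9 from osteoclasts and neutrophils.

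Most of the stromal cells' matrix protease signal came from few members, and the first distinction lay within a single gene array. In GRCm38, 10 Mmp genes stand together at chr9:7272514-7699585, over 427 kb. Mmp13, at the edge of this array, had a count in 374 of 386 cells. The other 9 genes of the array had a count in at most 7 cells each, and 4 of them (Mmp1a, Mmp1b, Mmp7 and Mmp20) had none. The promoters of 3 array genes are shown because these neighbours differ in which cells held their reads, and that of Adamts1 because it was the other member at a comparable level. Each run holds the 250 bases before the start of transcription in RefSeq (GRCm38.p6), in the direction of transcription.

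Mmp13 (chr9:7272264-7272513, plus strand): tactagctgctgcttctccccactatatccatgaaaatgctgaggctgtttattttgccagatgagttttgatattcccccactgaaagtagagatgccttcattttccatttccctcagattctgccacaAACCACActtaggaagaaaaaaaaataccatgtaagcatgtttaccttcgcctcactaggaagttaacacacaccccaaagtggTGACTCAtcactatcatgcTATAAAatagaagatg

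Mmp3 (chr9:7445572-7445821, plus strand): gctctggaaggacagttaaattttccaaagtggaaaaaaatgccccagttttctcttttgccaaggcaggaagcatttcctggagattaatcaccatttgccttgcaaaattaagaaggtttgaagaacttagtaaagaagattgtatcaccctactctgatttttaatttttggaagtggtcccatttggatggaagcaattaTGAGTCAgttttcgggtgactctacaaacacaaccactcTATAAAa

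Mmp8 (chr9:7558179-7558428, plus strand): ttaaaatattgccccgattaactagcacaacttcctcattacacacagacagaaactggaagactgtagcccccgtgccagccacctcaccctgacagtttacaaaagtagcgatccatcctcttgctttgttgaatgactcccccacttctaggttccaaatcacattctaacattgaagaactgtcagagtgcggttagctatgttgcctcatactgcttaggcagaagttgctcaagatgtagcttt

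Adamts1 (chr16:85803114-85803363, minus strand): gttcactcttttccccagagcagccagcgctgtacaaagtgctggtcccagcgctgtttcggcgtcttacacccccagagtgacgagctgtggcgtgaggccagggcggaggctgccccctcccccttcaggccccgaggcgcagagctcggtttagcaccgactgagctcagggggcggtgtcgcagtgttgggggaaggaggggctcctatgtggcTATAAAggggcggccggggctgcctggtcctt

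Capitals mark matches to 3 short motifs: TGANTCA, the site of AP-1 (Fos and Jun) factors, which reads the same on both strands except at its middle base; AACCACA, the site of Runx factors, searched on both strands; and TATAAA, searched on the coding strand only. The motifs share no match. The Mmp13 promoter held TGACTCA at -35 to -29 from the start, AACCACA at -119 to -113 and TATAAA at -16 to -11. The Mmp3 promoter held TGAGTCA at -46 to -40 and TATAAA at -7 to -2. None of the 3 motifs was in the Mmp8 window, and Adamts1 held TATAAA alone, at -32 to -27. RefSeq gave 35 such promoters for 32 of the 46 members. TGANTCA was in promoters of 8 members, all of them array genes (8 of 10), and in 6.75% of all 32851 promoters. AACCACA was found in 3 members (Mmp13, Mmp27 and Mmp7; 4.4% of all promoters) and TATAAA in 9 members, 7 of them in the array (7.59%). These are matches of letters, not measured sites: Mmp1a, Mmp1b, Mmp7 and Mmp20 carry TGANTCA too and had no count.

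Across the family, 36 members had a count in the kept cells and 10 had none, where 35.4% of all genes of the table had none. Besides the 4 array genes these were Adamts13, Adamts16, Adamts17, Adamts18, Adamts19 and Adamts20. A count of 0 allows up to 3 counts, which is 0.0269 to 0.0965 CPM in the groups and orders. A count in at least 20% of cells was found for 17 members, against 29.6% of all genes. With the requirement of 20 CPM and 20% of cells in at least 1 group and order, 18 members remained and are described with values: Mmp2, Mmp9, Mmp11, Mmp13, Mmp14, Mmp19 and Mmp23, all 4 Timp genes, and Adamts1, Adamts2, Adamts4, Adamts5, Adamts9, Adamts10 and Adamts14. The other 18 members with a count were met in 1 to 34 cells each and stayed under 12 CPM on average.

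Levels of different genes were compared per length, as TPM (transcripts per 1000000) of the summed counts. Mmp13 had the highest mean TPM over the groups and orders, 988, followed by Adamts1 with 835. Timp3, Adamts2, Timp1 and Mmp23 came next, at 217, 208, 203 and 183.1 TPM, and their order changed between groups and orders. Their merged exons span 8144, 9336, 888 and 2340 bases, against 4722, 7266, 883 and 1434 bases for the longest transcript. Both the narrow range and the order of these members therefore depend on the length used. Timp2 (131.4), Mmp14 (88.3), Mmp2 (76.6) and Adamts4 (75.4) formed the middle. Mmp11, Adamts14, Adamts10, Mmp19, Adamts5 and Timp4 lay between 26.96 and 39.1 TPM, and Mmp9 and Adamts9 under 19 TPM. Timp3 outranks Timp1 by CPM far more than by TPM, as its transcript is longer.

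**Figure D1:**
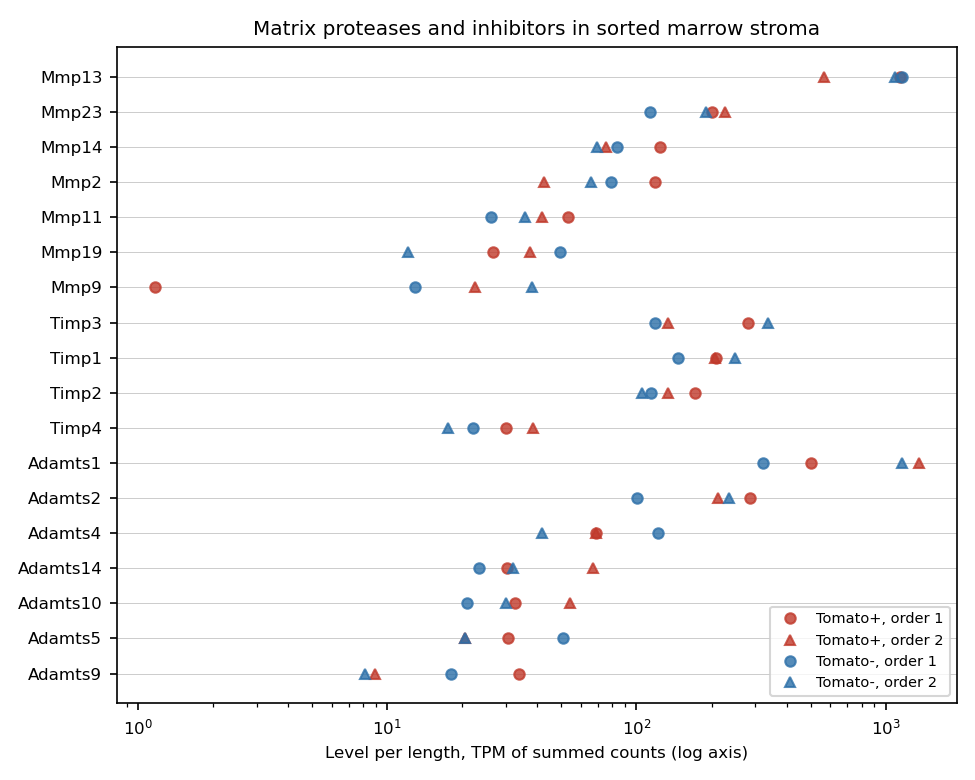
Level per length (TPM of summed counts, log axis) of the 18 members, with 1 point for each group (red Tomato+, blue Tomato-) and order (circle order 1, triangle order 2). Mmp13 and Adamts1 lie above all others on average, and Mmp9 has the widest range of the 18 (1.17 to 38.04 TPM).

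Among the collagenases and gelatinases, Mmp13 was abundant in both groups, and the groups stood more than 1.5-fold apart in order 2 alone. The summed level was 914 CPM in Tomato+ order 1 (exact Poisson 95% interval 909 to 920.0), 449 CPM in Tomato+ order 2 (441 to 456), 937 CPM in Tomato- order 1 (927 to 948) and 930.3 CPM in Tomato- order 2 (924 to 936). These intervals cover counting error only, and amplified reads that carry no molecular identifier cannot be taken as separate molecules. The log2 ratio of CPM + 1, Tomato+ over Tomato-, was -0.04 in order 1 and -1.05 in order 2. By set, Mmp13 stood at 829.9 (P1), 28.5 (P2), 1270.4 (P3) and 937 (N2) CPM in order 1, and at 592 (P1), 341 (P2), 582 (N1) and 1208 (N2) CPM in order 2. The groups' sets overlapped in both orders. Within the library codes of order 1 that hold both groups (83 Tomato+ and 60 Tomato- cells) the log2 ratio was -0.24, and between like-numbered sets of order 2, whose numbers the labels do not tie to a shared batch, it was 0.02 (sets 1) and -1.82 (sets 2). In order 2 the high Tomato- value rested in large part on 1 cell, which held 57.6% of the Mmp13 counts of set N2 and 41.6% of those of all Tomato- cells of that order.

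Single cells differed in Mmp13 far more than sets did. The median per-cell level was 143.4, 17.1, 112.5 and 30.02 CPM in Tomato+ order 1, Tomato+ order 2, Tomato- order 1 and Tomato- order 2, while the highest cells reached 17230, 5026, 23081 and 31714 CPM. A count was found in 96.9% of cells, 5 or more counts in 77.7%, and 83.2% had a count after thinning to 150000 counts. When counts under 1% of the gene's maximum in the same library pool were set to 0, 41.5% of cells were left, so a low Mmp13 count need not mean expression in that cell. The mean per-cell level lay above the median in all 8 sets, at 875 against 221 CPM in P1 of order 1 and at 34.3 against 26.4 CPM in the small P2 of that order.

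Mmp2, a gelatinase, and Mmp14, the membrane-bound enzyme that activates it together with Timp2, were at moderate levels. Mmp2 reached 120.7 and 42.7 CPM in Tomato+ cells of orders 1 and 2 and 80.5 and 71.1 CPM in Tomato- cells, with log2 ratios of 0.58 and -0.72. Its order 1 values each rested on 1 cell, which held 55.6% of the Tomato+ and 56.2% of the Tomato- counts. Mmp14 was more evenly spread: 224 and 134.05 CPM in Tomato+ and 149.6 and 132.8 CPM in Tomato- cells, with log2 ratios of 0.58 and 0.01. No cell held more than 15.8% of a group's Mmp14 counts, but the direction of its mean ratio (0.30) turned to -0.69 without set P1 of order 1.

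The remaining Mmp genes at this level are less well known in marrow. Mmp23 encodes a membrane-anchored member that is shed from the cell, and it was the second Mmp gene per length. It stood at 141.9 and 158.2 CPM in Tomato+ and 79.8 and 142.5 CPM in Tomato- cells, with log2 ratios of 0.82 and 0.15. Mmp11 (stromelysin-3, activated inside the cell by furin) reached 44.2 and 34.4 CPM in Tomato+ and 21.8 and 31.8 CPM in Tomato- cells, with log2 ratios of 0.99 and 0.11. Both were past 1.5-fold in order 1 and close to level in order 2. Mmp19 took opposite directions: 28.2 CPM in Tomato+ against 52.4 CPM in Tomato- cells in order 1, and 39.3 against 13.7 CPM in order 2. The Mmp19 value of Tomato+ order 2 rested on set P1, at 72.1 CPM, while P2 stood at 14.6 CPM beside 13.8 and 13.6 CPM in N1 and N2.

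Mmp9 (chr2:164940780-164955850 in GRCm38, plus strand) was the only member lower in Tomato+ cells under the size rule. The rule asks for a log2 ratio past 1.5-fold in the same direction in both orders, for 20 CPM on average over the orders with detection in 20% of the cells of the higher group, and for the same sign in the mean of per-cell CPM. Mmp9 lay at 1.25 CPM (1.05 to 1.47) in Tomato+ order 1, 23.7 CPM (22.03 to 25.5) in Tomato+ order 2, 13.7 CPM (12.51 to 15.1) in Tomato- order 1 and 43.1 CPM (41.8 to 44.5) in Tomato- order 2. The log2 ratios were -2.71 and -0.84, and -3.81, -1.27 and -0.53 within shared library codes of order 1 and between the sets numbered 1 and 2 of order 2. Over all genes with a count, 1.95% passed the rule as lower and 1.4% as higher, so 1 of 36 members in either direction is close to the share of all genes; at the level asked the shares were 4.72% and 3.4%, beside 1 of 18 members each way. Only 65 cells had an Mmp9 count at all. In order 1, 7 Tomato+ and 3 Tomato- cells had one, and 1 cell held 95.7% of the Tomato+ and 71.7% of the Tomato- counts.

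The Mmp9 difference of order 2 moved with cells that held Ptprc. The 12 Ptprc cells carried 39.6% of all Mmp9 counts, at 217 CPM, against 21.1 CPM in 23 cells with 5 or more counts of Pecam1 (CD31) but not of Ptprc, and 11.9 CPM in the 351 cells with neither. Among the latter, Tomato+ cells stood at 1.33 and 26.6 CPM of Mmp9 in orders 1 and 2 and Tomato- cells at 14.03 and 19.99 CPM, so that the direction of order 2 turned. Cells with neither marker were not free of myeloid reads, as given above. Mmp9 no longer passed the rule without the cells holding Ptprc or Pecam1 (mean log2 ratio -1.15), without the top cell of each group (-1.83), with low counts of each pool set to 0 (-1.79) or within the batches that hold both groups (-1.87). Without set N1 (-1.71) or N2 (-1.85) of order 2 it did not pass either. There the ratio stayed past 1.5-fold in both orders, but detection in Tomato- cells fell under 20%. Of the 7 osteoclast markers, Ocstamp, Dcstamp, Calcr and Oscar were at 0 in all cells. Acp5 had a count in 5.44% of cells and Atp6v0d2 in 1.04%, while Ctsk, which encodes the collagen-cleaving cathepsin K, was met in 88.1% of cells at 153.98 to 207 CPM.

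**Figure D2:**
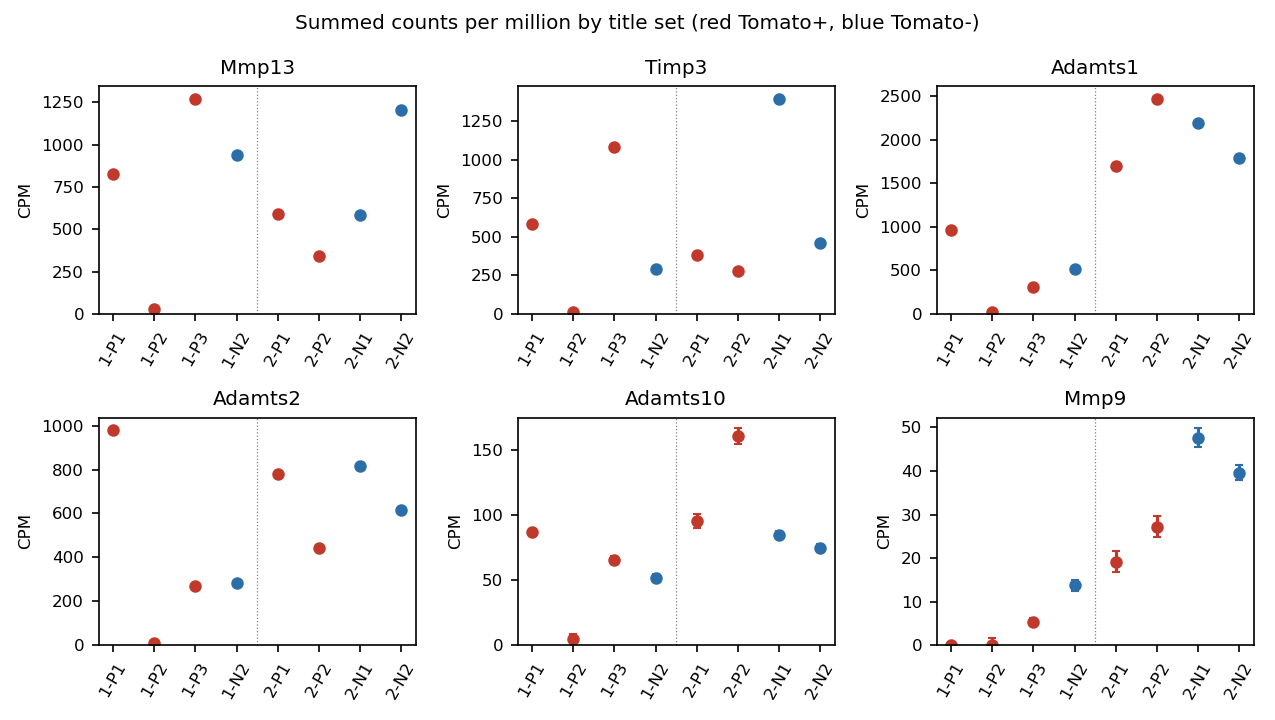
Summed CPM of 6 members in each title set (order and set name on the x axis, red Tomato+, blue Tomato-; bars are exact Poisson 95% intervals, often smaller than the point; the dotted line parts the orders). Adamts1 is higher in all sets of order 2 (1698 to 2470 CPM) than in those of order 1, and set P2 of order 1 is the lowest in each panel.

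Of the inhibitors, Timp3 (chr10:86300372-86349506, plus strand), whose protein binds to the matrix and also blocks Adamts enzymes, had the highest CPM, and its group difference reversed between the orders. It stood at 687 and 324 CPM in Tomato+ and at 291 and 876 CPM in Tomato- cells of orders 1 and 2, a log2 ratio of 1.24 for order 1 and of -1.43 for order 2. By set, the values were 585 (P1), 11.9 (P2), 1081 (P3) and 291 (N2) CPM in order 1, and 384 (P1), 278 (P2), 1399 (N1) and 459 (N2) CPM in order 2. Both Tomato- sets of order 2 lay above both Tomato+ sets. Within shared library codes of order 1 the log2 ratio was 1.15, and between like-numbered sets of order 2 it was -1.86 and -0.72. In Tomato- order 1, 52.6% of the counts came from 1 cell, and the median cell had 10.4, 8.76, 14.4 and 69.2 CPM in Tomato+ order 1, Tomato+ order 2, Tomato- order 1 and Tomato- order 2. In set N1 the median cell was at 364 CPM, whereas the medians of the other 7 sets lay between 5.61 and 14.4 CPM.

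Timp2, which both inhibits Mmp enzymes and takes part in Mmp2 activation, was the steadiest inhibitor. Its CPM was 200.7 and 155.5 in Tomato+ and 134.97 and 131.2 in Tomato- cells, and the log2 ratios of 0.57 and 0.24 stayed within 1.5-fold. The mean Timp2 ratio lay above 0 under 18 of 18 alternative settings, between 0.15 and 0.53. Timp1, the inhibitor that also binds the Mmp9 precursor, reached 55.8 and 54.5 CPM in Tomato+ and 39.4 and 70.9 CPM in Tomato- cells, with log2 ratios of 0.49 and -0.38. Timp4 was past 1.5-fold in order 2 only: it stood at 53.1 and 67.04 CPM in Tomato+ and 39.3 and 33.04 CPM in Tomato- cells, with log2 ratios of 0.43 and 1.0. Set P2 held the high Timp4 value of Tomato+ order 2 (94.4 CPM, 60.2% of it in 1 cell), and without cells holding Ptprc or Pecam1 the mean log2 ratio fell from 0.71 to 0.11. Timp1, Timp3 and Timp4 each overlap a synapsin gene on the other strand (Syn1, Syn3 and Syn2, with 483, 214 and 415 counts), and reads of such pairs cannot be told apart because no strand setting of the counting is given; the same holds for Mmp11 with Chchd10 (3367 counts), Mmp19 with Tmem198b (3891) and Adamts9 with 9530026P05Rik (2740).

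Summed per length, inhibitor and protease transcripts kept different proportions in the groups and orders. The 4 Timp genes summed to 690.3 and 513 TPM in Tomato+ and to 403 and 708 TPM in Tomato- cells of orders 1 and 2. The Mmp genes summed to 1676 and 1016 TPM in Tomato+ and 1546 and 1542 TPM in Tomato- cells. The Timp sum was thus 0.412 and 0.505 of the Mmp sum in Tomato+ and 0.260 and 0.459 in Tomato- cells. The Adamts sum moved more with the order than with the group, at 993 and 1796 TPM in Tomato+ and 672 and 1536 TPM in Tomato- cells. These sums are led by Mmp13, Timp3, Timp1 and Adamts1, and RNA proportions say nothing of protein. The sums also depend on the merged exon lengths used.

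Of the Adamts proteoglycan-cleaving enzymes, Adamts1 was found in the most cells of all members, 383 of 386. Its level was 800.5 and 2139 CPM in Tomato+ and 515 and 1968 CPM in Tomato- cells of orders 1 and 2, with group log2 ratios of 0.64 and 0.12. The larger contrast was between the orders: order 2 exceeded order 1 by a log2 ratio of 1.42 in Tomato+ and 1.93 in Tomato- cells. By set, Adamts1 ran from 24.3 CPM (P2) over 312 (P3) and 515 (N2) to 968 (P1) in order 1, and from 1698 (P1) to 2470 (P2) in order 2, with N1 at 2191 and N2 at 1789.7 CPM. The sets of the orders did not overlap. Only columns of order 1 have names that point to RSEM gene results, so the orders may have been processed differently. The part of this in the contrasts between orders was not tested. Mmp9 and Adamts10 were also higher in order 2 in both groups, so that 3 of 36 members passed 20 CPM, 20% of cells and 1.5-fold in both, beside 5.36% of all genes with a count. Adamts9 was lower in both, beside 7.01%. Pooling the orders would therefore set Tomato+ cells, mostly of order 1, against Tomato- cells, mostly of order 2; the Adamts1 ratio then became -0.54.

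Adamts4 and Adamts5, known as aggrecanases, and Adamts9, another proteoglycan-cleaving enzyme, were at lower levels. Adamts4 stood at 99.7 and 98.6 CPM in Tomato+ and at 177.03 and 64.2 CPM in Tomato- cells, with log2 ratios of -0.82 and 0.61. A single cell held 72.8% of the Adamts4 counts of Tomato- order 1. Adamts5 stood at 99.1 and 66.01 CPM in Tomato+ and at 165.8 and 70.9 CPM in Tomato- cells, past 1.5-fold in order 1 only (log2 ratios -0.74 and -0.10). Adamts9 was at 153.3 and 40.1 CPM in Tomato+ and 81.5 and 39.2 CPM in Tomato- cells. Its order 1 value in Tomato+ cells rested on 1 cell, which held 46.7% of the counts, and set P2 of that order stood at 3665 CPM against 33.1 in P1 and 249 in P3. The mean Adamts9 log2 ratio was 0.47, and 0.03 without set P2. It turned to -0.47 within the batches that hold both groups, with -1.50 within shared library codes of order 1 and -0.12 and 0.20 between the sets numbered 1 and 2 of order 2.

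Adamts2 and Adamts14, which with Adamts3 remove the amino-terminal propeptide of fibrillar procollagens, were both broadly found. Adamts2 stood at 800.6 and 587 CPM in Tomato+ and at 282 and 704 CPM in Tomato- cells, with log2 ratios of 1.5 and -0.26. In order 1, Tomato+ set P1 (981 CPM) lay far above P3 (271) and Tomato- N2 (282), which were nearly level. By set, the order 1 difference was thus that between P1 and the other sets. Within the library codes of order 1 that hold both groups, the Adamts2 log2 ratio was 1.80. Between the sets numbered 1 and 2 of order 2 it was -0.06 and -0.48. In order 2 the sets overlapped, at 779.75 (P1) and 442 (P2) against 815.3 (N1) and 616 (N2) CPM. Adamts14 reached 47.2 and 103.5 CPM in Tomato+ and 36.7 and 53.1 CPM in Tomato- cells, with log2 ratios of 0.35 and 0.95. In Tomato- order 1 a single cell held 95.4% of the Adamts14 counts, and without the top cell of each group the mean log2 ratio rose from 0.65 to 2.39. Adamts3 was met in 34 cells only.

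Adamts10 (chr17:33524204-33553782, plus strand), whose enzyme binds fibrillin microfibrils, was the only member higher in Tomato+ cells under the size rule. It stood at 80.8 CPM (79.1 to 82.5) in Tomato+ against 52.1 CPM (49.6 to 54.6) in Tomato- cells of order 1, and at 132.8 CPM (128.8 to 136.9) against 79.4 CPM (77.6 to 81.2) in order 2. The log2 ratios were 0.62 and 0.73. Sets P1 and P3 of order 1 (87.3 and 65.6 CPM) lay above N2, set P2 (4.59 CPM) below it, and in order 2 both Tomato+ sets (95.7 and 160.7 CPM) lay above both Tomato- sets (84.9 and 75.1 CPM). The mean ratio of 0.68 stayed above 0 under 18 of 18 alternatives, between 0.35 and 1.09, but the call was close to its limit. Adamts10 no longer passed with TMM scaling (0.66), with each group summed over both orders (0.35), within the batches that hold both groups (0.61), without cells holding Ptprc or Pecam1 (0.55), without set P1 of order 1 (0.48) or without set P2 of order 2 (0.44). Within shared library codes of order 1 the log2 ratio was 0.58, and between the sets numbered 1 and 2 of order 2 it was 0.17 and 1.09.

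**Figure D3:**
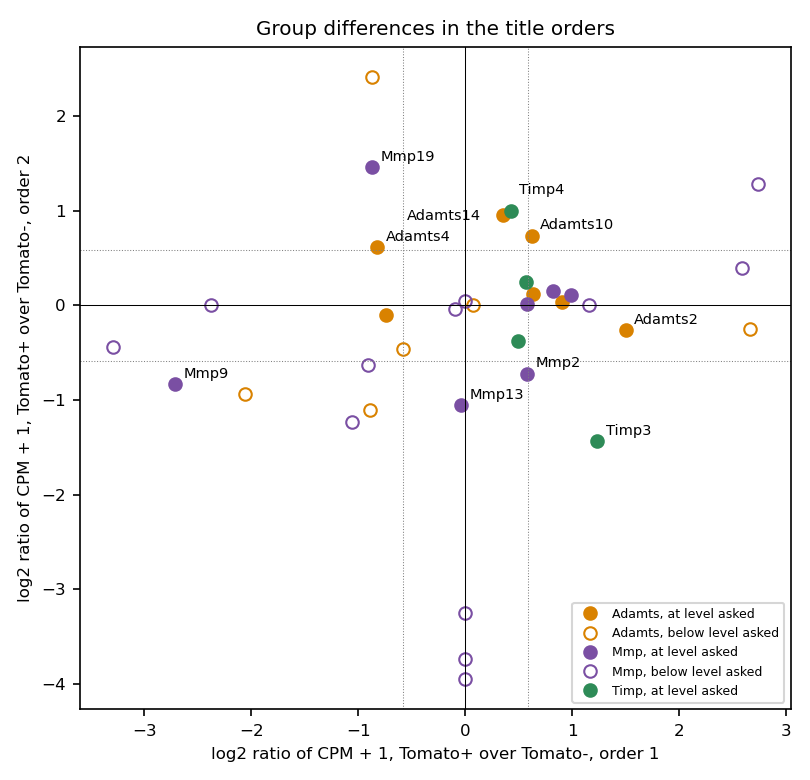
Log2 ratio of CPM + 1, Tomato+ over Tomato-, of the 36 members with a count, order 1 on the x axis and order 2 on the y axis; filled points are the 18 members described with values, colours give the family, and dotted lines mark 1.5-fold. Among the filled points, only Adamts10 lies past 1.5-fold in the upper right and only Mmp9 in the lower left, while Mmp19, Adamts4 and Timp3 lie past it in opposite corners.

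As a group, the 36 members with a count had a median log2 ratio of 0.03 (0.04 in order 1 and -0.02 in order 2), against -0.01 over all 16143 genes with a count. For the 18 members at the level asked it was 0.34 (0.57 and 0.07), against 0.00 over 6649 genes. In order 1 alone, 7 of the 18 were higher past 1.5-fold and 4 lower, where 27.5% and 24.5% of genes were. In order 2 alone, 5 were higher and 4 lower, where 9.31% and 14.1% were. Mmp19, Timp3 and Adamts4, 3 of 18, went past 1.5-fold in opposite directions, where 6.17% of genes did.

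In single cells the members were mostly found in combination. A cell held a median of 12 members with a count (4 to 20) and 8 with 5 or more counts (1 to 16). After thinning of 369 cells to 150000 counts the median was 10. Of the 4 Timp genes, 39.4% of cells held exactly 2 with 5 or more counts, 26.4% held 1, 17.4% held 3, 5.44% (21 cells) held all 4 and 11.4% (44 cells) held none. Cells with 5 or more Mmp2 counts also held Mmp14 and Timp2, the other parts of the Mmp2 activation complex, in 46 of 72 cases (63.9%, exact Clopper-Pearson 95% interval 51.7 to 74.9), against 38.5% (33.1 to 44.2) of the 314 cells without Mmp2. After thinning, the shares with a count were 61.5% (50.97 to 71.2) and 50.2% (44.1 to 56.3), and the intervals overlapped. The first pair of shares asks for 5 counts and the second for 1, so the pairs are not compared with each other. After thinning, 11 of 11 Mmp2 cells of Tomato+ order 2 held both partners (71.5 to 100%), against 54.1% (36.9 to 70.5) of the cells without Mmp2. In Tomato+ order 1 the shares were 44.8% (26.4 to 64.3) and 43.3% (33.6 to 53.3). In Tomato- cells the shares were 52.6% and 47.1% in order 1 and 67.6% and 57.1% in order 2, with intervals that overlapped. The gap in Tomato+ order 2 rests on 11 Mmp2 cells and was absent in Tomato+ order 1, and cells are not replicates.

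Across the kept cells of each order, log levels of the 18 members were weakly related. Of all pairs of these 18 members, 25 had a Pearson r of 0.2 or more in either order. The lowest r of any pair was -0.19. Adamts2 was part of both pairs with r above 0.3 in both orders, with Mmp23 (0.47 and 0.43) and with Adamts1 (0.35 and 0.44). The cells share libraries and differ in depth, and in order 1 these genes also followed the number of genes detected per cell, with r of 0.53 for Adamts2, 0.45 for Mmp23 and 0.31 for Adamts1. In order 2 these values were -0.19, 0.04 and -0.29.

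**Figure D4:**
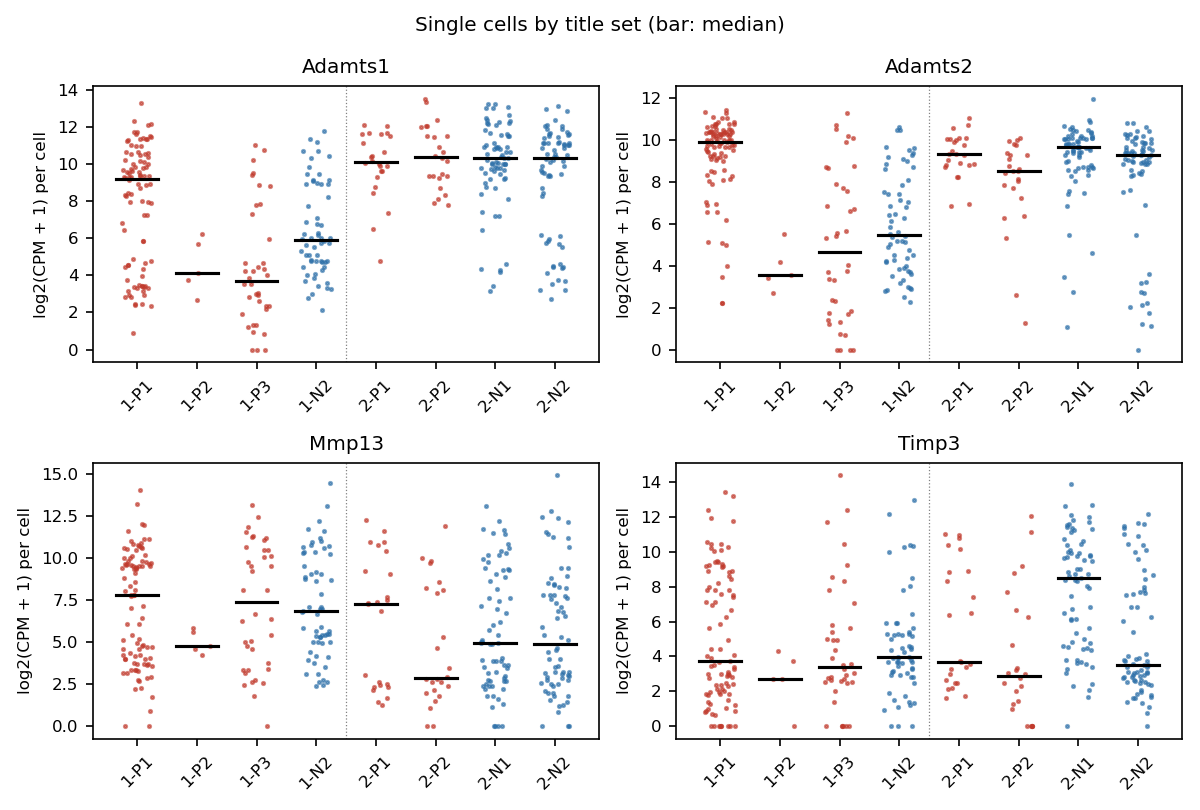
Level per cell, log2 of CPM + 1, of Adamts1, Adamts2, Mmp13 and Timp3 in each title set, with 1 point per cell (red Tomato+, blue Tomato-) and a bar at the median. Adamts2 medians are high in set P1 of order 1 and in all sets of order 2 and low in the other sets of order 1, and Timp3 has a high median in set N1 of order 2 alone.

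The marked cells carried another set of proteases. Mmp8, the neutrophil collagenase, had 99.6% of its counts in 2 of the 12 Ptprc cells, at 136.9 CPM over that class, against 0.0207 CPM in the cells with neither marker. Mmp25, a membrane-anchored enzyme of leukocytes, had 85.7% of its counts there, in 6 cells, at 108.1 CPM against 0.720 CPM. The members typical of the sorted stroma were low in the same 12 cells: Mmp13 stood at 4.01 CPM, Adamts1 at 65.7, Adamts2 at 58.8 and Mmp14 at 17.05, beside 901, 1371, 719 and 178.1 CPM in the cells with neither marker. Timp3 was an exception, at 1076 CPM beside 601 CPM. The 12 cells are all Tomato- cells of order 2, while the cells with neither marker are of all groups and orders. In the Tomato- cells of order 2 with neither marker, Timp3 stood at 883 CPM, Mmp13 at 1106, Adamts1 at 2180, Adamts2 at 788 and Mmp14 at 147.7. In cells with Pecam1 but no Ptprc, Mmp13 was at 898 CPM, Adamts1 at 1382 CPM and Mmp14 at 186.2 CPM, near the cells with neither marker. Adamts2 was lower there, at 471 CPM, as was Mmp11, at 15.4 against 38.9 CPM. Timp3 was higher, at 1285 CPM, as were Adamts5, at 263.9 against 85.3 CPM, and Timp4, at 94.2 against 44.5 CPM. Other members also lay to either side. These Pecam1 cells were 7 and 6 Tomato+ and 1 and 9 Tomato- cells of orders 1 and 2. Their make-up thus differs from that of the cells with neither marker.

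**Figure D5:**
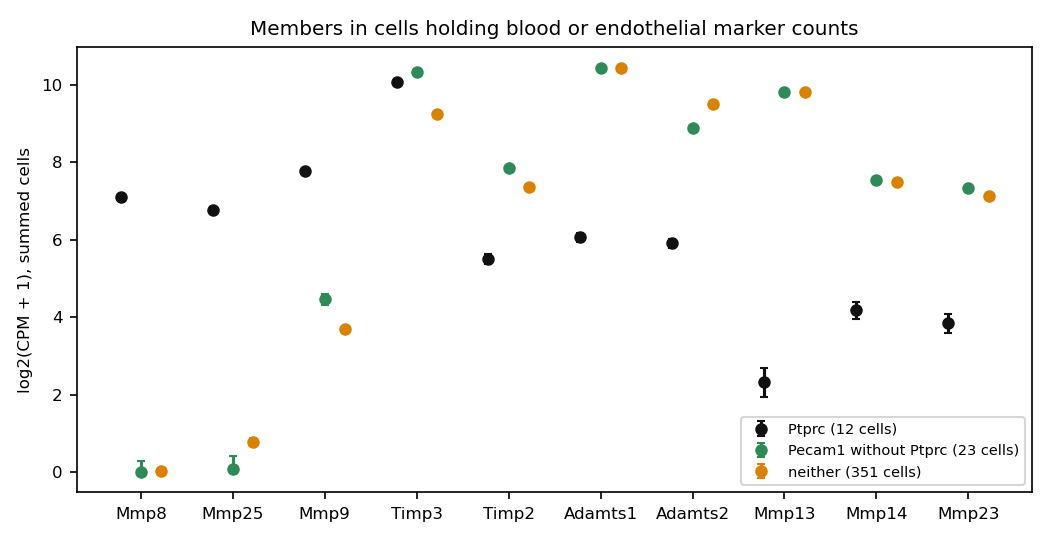
Log2 of CPM + 1 in the summed cells of each marker class (black: 5 or more Ptprc counts, 12 cells; green: 5 or more Pecam1 counts without Ptprc, 23 cells; orange: neither, 351 cells), with exact Poisson 95% intervals. Mmp8, Mmp25 and Mmp9 are highest in the Ptprc cells, Timp3 lies between 601 and 1285 CPM in all classes, and the other members shown are lowest in the Ptprc cells.

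Of the genes that work with these enzymes, 81 had a count, and 1 (1.23%) passed the size rule as higher and 1 (1.23%) as lower, close to the 1.4% and 1.95% of all genes with a count. Of 10 activators and surface partners, 8 had a count and 1 passed the size rule, as lower: Cd44, a hyaluronan receptor that docks Mmp9, at 71.2 and 68.7 CPM in Tomato+ against 137.8 and 113.1 CPM in Tomato- cells (log2 ratios -0.94 and -0.71). Basigin (Bsg), an inducer of Mmp synthesis, was at 447 to 683 CPM. Of 10 other inhibitors, 9 had a count and 1 was higher: Tfpi2, a Kunitz-type inhibitor of the matrix, at 18.1 and 68.6 CPM against 7.18 and 38.8 CPM (1.23 and 0.81). The serpin Serpine2, at 8669 to 14415 CPM, and the cystatin Cst3, at 2332 to 4529 CPM, were the most abundant of these inhibitors. None passed the rule among 3 clearance receptors, 10 Adam membrane proteases, 12 Adamts-like and related matrix proteins, 18 astacin and cysteine proteases, 14 Adamts substrates and 11 collagens. Lrp1, the receptor that clears Mmp13 and Adamts enzymes, lay at 399.8 and 325 CPM in Tomato+ and 236 and 251 CPM in Tomato- cells, and Thbs1, a thrombospondin among the substrates, at 211 and 1242 CPM in Tomato+ and 119.9 and 1037 CPM in Tomato- cells, higher in order 2 like Adamts1.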

How the data were processed

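Single cells were sorted from mouse bone marrow. Per the labels' protocols, reverse transcription and whole-transcriptome amplification of polyadenylated RNA preceded the libraries, and molecular identifiers are not mentioned. The deposited table holds expected counts of 25000 genes by symbol in 388 cells, and 4.91% of its values above 0 are not whole. Per the file headers, 199 of its column names, all of order 1, point to RSEM gene results. Tools named in the submitters' processing notes are StringTie 1.3.3b, HTSeq 0.6.0 and HISAT, with the build GRCm38; the role of each, the gene annotation and any strand setting were not given there. No step by the authors that removes doublets is named, and no doublet caller was run.

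Expected counts were rounded to whole numbers. Columns were matched by name to a group and title set, none to a single cell's title, and 0 columns were left unused. A minimum of 1000 genes and 10000 counts per cell left out 2 cells of set P3 of order 1. Sums over a group's cells were taken per order and scaled to CPM; a ratio divides CPM + 1 of Tomato+ by that of Tomato- on the log2 scale, in each order and as the mean over the 2 orders, which understates differences of low genes. TPM used merged exon lengths of GENCODE M21 (GRCm38), matched by 24685 symbols. Since no animal is named, each group is 1 sample and no test was made; sums carry exact Poisson and shares exact Clopper-Pearson 95% intervals, for counting error only. The members, lists and rules were chosen with earlier results of these data known. Members with values in each set had 20 CPM and a count in 20% of cells in at least 1 group and order; other members are named for their low detection or the marker class that holds them, and genes of the 8 other pathway lists for passing the size rule or for being among the 2 highest of their list. A threshold of 5 counts of Ptprc or Pecam1 set the marker classes. The alternatives were TMM scaling (edgeR 4.0.16 in R 4.3.3), the weight of cells, pseudocounts of 0.1 and 5, other filters on cells and genes, top cells or marked cells left out, low counts of a pool set to 0, ratios within batches, and each set left out. Scripts used Python 3.11.15, NumPy 2.4.6, pandas 2.3.3 and SciPy 1.17.1, and the calls were tested on simulated data.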

Additional observations from a re-analysis of the deposited data

Results flagged for a closer look

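In 3 members the group difference went past 1.5-fold in one direction in order 1 and in the other in order 2. The log2 ratio, Tomato+ over Tomato-, was -0.87 and 1.46 for Mmp19, 1.24 and -1.43 for Timp3, and -0.82 and 0.61 for Adamts4 in orders 1 and 2. The difference between the orders was not tested, since each group is 1 sample. In order 1 of Tomato-, 1 cell held 38.1% of the Mmp19, 52.6% of the Timp3 and 72.8% of the Adamts4 counts.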

How the results depend on the processing

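The count of members passing the size rule was 1 higher and 1 lower. The higher count became 0 with TMM scaling, without cells holding Ptprc or Pecam1 and within batches; 3 with the mean of per-cell CPM (Timp4, Adamts10, Adamts14); and 2 with both orders summed (Timp4, Adamts9), without top cells or with no filter on level. The lower count became 0 without top cells, without Ptprc or Pecam1 cells, with low pool counts set to 0 and within batches; 5 with no filter on level; and 3 at 5 CPM and 5% of cells. Leaving out 1 title set at a time gave 0 to 5 higher and 0 to 4 lower; both maxima came without set N2 of order 1, the only Tomato- set there, which leaves order 2 alone. The median log2 ratio of the members, 0.03, became 0.18 with the mean of per-cell CPM, 0.13 with a pseudocount of 0.1 and -0.026 within batches; leaving out sets gave -0.021 without N2 and -0.20 without P1 of order 1, and 0.087 without N1 and -0.035 without P1 of order 2. The cause of these shifts was not tested. The number of members with a count in 20% of cells, 17, lay between 14 and 17, and that of members at 10 TPM or more, 18, at 18 or 19. No paired analysis was possible because the set and cell numbers are not stated to pair cells across the groups and no test was made. Transcripts held by few cells are limited by depth and amplification.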

Other observations

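Some members under the level asked were mostly reads of single cells. Mmp3 (stromelysin-1) had 99.1% of its 792 counts in 1 cell, Mmp10 (stromelysin-2) 98.5% and Mmp27 97.9%. Mmp15, a membrane-bound enzyme, had 88.7% of its 346 counts in 1 cell. Others were spread over more cells at low levels: Mmp17 over 25 cells, Mmp16 over 24, Adamts7 over 34, and Adamts12 and Adamts15 over 32 each. Of the latter 5, none had more than 34.3% of its counts in 1 cell. Adamts3 (34 cells), Mmp25 (19) and Mmp24 (16) had 8.63%, 30.4% and 20.7% of their counts in 1 cell.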
